A study of Homo sapiens with 72 samples.

Results

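The 27 genes described here make cholesterol, sense it, and move it in and out of cells. They were chosen by name, with earlier results of these data known, from 62266 annotated genes in a study of human cervicovaginal epithelium. Of these genes, 7 encode enzymes of the mevalonate arm, 11 encode enzymes from squalene to cholesterol, 5 encode sterol sensors and regulators of the sterol regulatory element-binding proteins (SREBPs), and 4 encode proteins of sterol transport, efflux and uptake. The study used 3 epithelial lines, Ect/E6E7 from the ectocervix (Ecto), End1/E6E7 from the endocervix (Endo) and VK2/E6E7 from the vagina (VK2). Each is a single line immortalized with papillomavirus E6 and E7, and all groups share that background. The cells grew in keratinocyte serum-free medium with epidermal growth factor and bovine pituitary extract. They were left without polyamine (NT) or received 4 mM putrescine (PUT), 400 µM spermidine (SPD) or 400 µM spermine (SPM) for 4 h, and then met live Gardnerella vaginalis at 10000000 CFU per well for 24 h (GV) or no bacteria (noGV). This gave 8 groups per line, 3 libraries per group and 72 libraries in all.

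Cholesterol is built from acetyl-CoA. The mevalonate arm makes activated isoprene units, and the later arm turns squalene into lanosterol and then cholesterol. When sterols in the endoplasmic reticulum run low, SCAP escorts SREBP precursors to the Golgi, where they are cleaved into transcription factors that switch on nearly every enzyme gene of the route. INSIG1 and INSIG2 hold SCAP back when sterols are plentiful. Oxysterols activate the liver X receptors (LXRs), which switch on the exporter genes ABCA1 and ABCG1 and the ubiquitin ligase gene MYLIP. In stratified epithelia, cholesterol is also a lipid of the surface barrier.

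The libraries held 20152143 to 42767996 estimated counts, with a median of 31872238.5. All 8 epithelial markers examined, among them KRT5, CDH1 and TP63, reached a median of at least 1 CPM, a count scaled to library depth, in each line. Of the fibroblast, leukocyte and endothelial markers examined, COL1A1 and CD68 also did in each line, CD14 in Ecto and VK2, DCN in VK2 and CDH5 in Ecto. The epithelial markers summed to medians of 8800, 16500 and 22900 CPM in Ecto, Endo and VK2. The leukocyte markers, the highest of the other lists, summed to 67.9, 54.4 and 89.7 CPM. Over 72 libraries the members' own totals ran from 13818 counts for TM7SF2 to 694865 for MSMO1, so that small changes in most members could be measured. The Ecto SPD+noGV library of replicate 3 lay farthest from the other libraries of its group. Its ABCA1 level was 28.7 CPM beside 54.1 and 52.2 CPM, and its MVD level was 194 CPM beside 154 and 155 CPM. The labels do not say whether the 3 libraries of a group came from separate cultures, so p-values measure the spread between these libraries, which may be technical.

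Promoter sequence was examined because members that moved together might share letters there. RefSeq windows on GRCh38.p14, from 250 bases before to 50 bases after the start site, were found for 23 of the 27 members, as 29 windows. The members not matched were FDFT1, ABCG1, ACAT2 and SQLE. The letters CCAAT, bound by NF-Y, a partner of SREBPs, were searched on both strands and lay in windows of 17 of the 23 members. By window, 19 of 29 (65.5%) held them, beside 34.61% of all 35116 windows. In the IDI1 and NSDHL windows a match on one strand overlapped a match on the other. The sterol regulatory letters TCACNCCAC were found for SREBF2 alone among members, starting at position -133, and lay in 1.13% of all windows. The E-box letters CACGTG lay in windows of 5 members, which is 20.7% of member windows and 7.26% of all windows. These are matches of letters, and no binding was measured. The 6 stretches below cover bases 180 to 31 before the start, 5′ to 3′ on the gene's strand. They belong to the enzymes that fell most often (MVD, LSS) and an enzyme called in opposite directions in different lines (HMGCS1). The others are the sensor and ligase genes called higher in all 3 lines under putrescine (INSIG1, MYLIP) and the SREBP2 gene itself. Capitals mark CCAAT, its reverse complement ATTGG, and in SREBF2 also TCACCCCAC. They lie at chr16:88663122-88663271 on the minus strand (MVD), chr21:46228805-46228954 on the minus strand (LSS), chr5:43313443-43313592 on the minus strand (HMGCS1), chr7:155297698-155297847 on the plus strand (INSIG1), chr6:16128906-16129055 on the plus strand (MYLIP) and chr22:41832925-41833074 on the plus strand (SREBF2).
MVD: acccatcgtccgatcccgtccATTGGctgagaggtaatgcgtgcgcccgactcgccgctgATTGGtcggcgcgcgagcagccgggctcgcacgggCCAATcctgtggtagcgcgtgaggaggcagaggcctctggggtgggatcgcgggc
LSS: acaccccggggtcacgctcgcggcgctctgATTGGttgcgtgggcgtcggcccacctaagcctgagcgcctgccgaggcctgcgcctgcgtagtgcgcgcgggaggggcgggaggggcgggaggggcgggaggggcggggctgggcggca
HMGCS1: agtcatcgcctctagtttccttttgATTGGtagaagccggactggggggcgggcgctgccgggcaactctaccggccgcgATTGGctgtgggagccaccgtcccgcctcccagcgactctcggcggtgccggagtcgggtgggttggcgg
INSIG1: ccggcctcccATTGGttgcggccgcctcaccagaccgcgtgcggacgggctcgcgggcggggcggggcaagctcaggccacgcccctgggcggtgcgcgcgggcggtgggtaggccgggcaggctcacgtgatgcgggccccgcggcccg
MYLIP: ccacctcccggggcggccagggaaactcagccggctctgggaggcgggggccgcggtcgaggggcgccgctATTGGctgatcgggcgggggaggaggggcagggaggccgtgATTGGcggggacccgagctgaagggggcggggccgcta
SREBF2: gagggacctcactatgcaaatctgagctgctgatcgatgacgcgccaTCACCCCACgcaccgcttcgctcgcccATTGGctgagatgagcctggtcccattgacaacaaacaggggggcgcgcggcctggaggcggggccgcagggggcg
The MVD stretch held 3 such matches, HMGCS1 and MYLIP held 2 each, and LSS, INSIG1 and SREBF2 held 1 each. Windows of these genes were shown only if they held CCAAT or ATTGG, so a match somewhere in each window was fixed by that choice.

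Untreated cells of the 3 lines already differed in these genes. Here CPM values are scaled over all 72 libraries, and differences are from 1 edgeR quasi-likelihood model over them, with Benjamini-Hochberg adjustment over 21195 genes. In NT+noGV cells 17 members were higher and 8 lower in Ecto than in VK2, while 31.8% and 32% of all tested genes were. Against VK2, Endo had 17 members higher and 5 lower, and 29.3% and 30.4% of all genes were. Ecto had 8 members higher and 12 lower than Endo, near the 31.9% and 32% of all genes. The widest gap was in ABCG1, which exports cholesterol to high density lipoprotein. Its levels were 2.05, 1.85 and 1.55 CPM in Ecto, 30.6, 29.7 and 28.8 CPM in Endo and 24.7, 24.3 and 24.1 CPM in VK2. The Ecto libraries lay below all others, with a log2 difference from Endo of -4.04 ± 0.13, adjusted p = 1.67e-36, where ± gives the SE here and below. MYLIP, a ubiquitin ligase that marks lipoprotein receptors for degradation, had the opposite kind of gap. It measured 2.88, 3.17 and 3.1 CPM in Ecto, 2.76, 2.77 and 2.84 CPM in Endo and 0.397, 0.43 and 0.505 CPM in VK2. VK2 was lowest, and Ecto and Endo did not differ beyond their spread (log2 difference 0.12 ± 0.14, adjusted p = 0.464). HMGCS1, which condenses acetoacetyl-CoA into HMG-CoA, measured 349, 376 and 357 CPM in Ecto, 161, 174 and 169 CPM in Endo and 128, 142 and 137 CPM in VK2. All 3 lines differed, and Ecto exceeded VK2 by 1.41 ± 0.059, adjusted p = 1.24e-31 on the log2 scale. MSMO1, which oxidizes methyl groups of lanosterol derivatives, was also lowest in VK2, by 1.18 ± 0.059, adjusted p = 3.06e-27 against Ecto. SREBF1, the SREBP1 gene, was highest in Endo, where it exceeded Ecto by 1.83-fold.

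**Figure D1:**
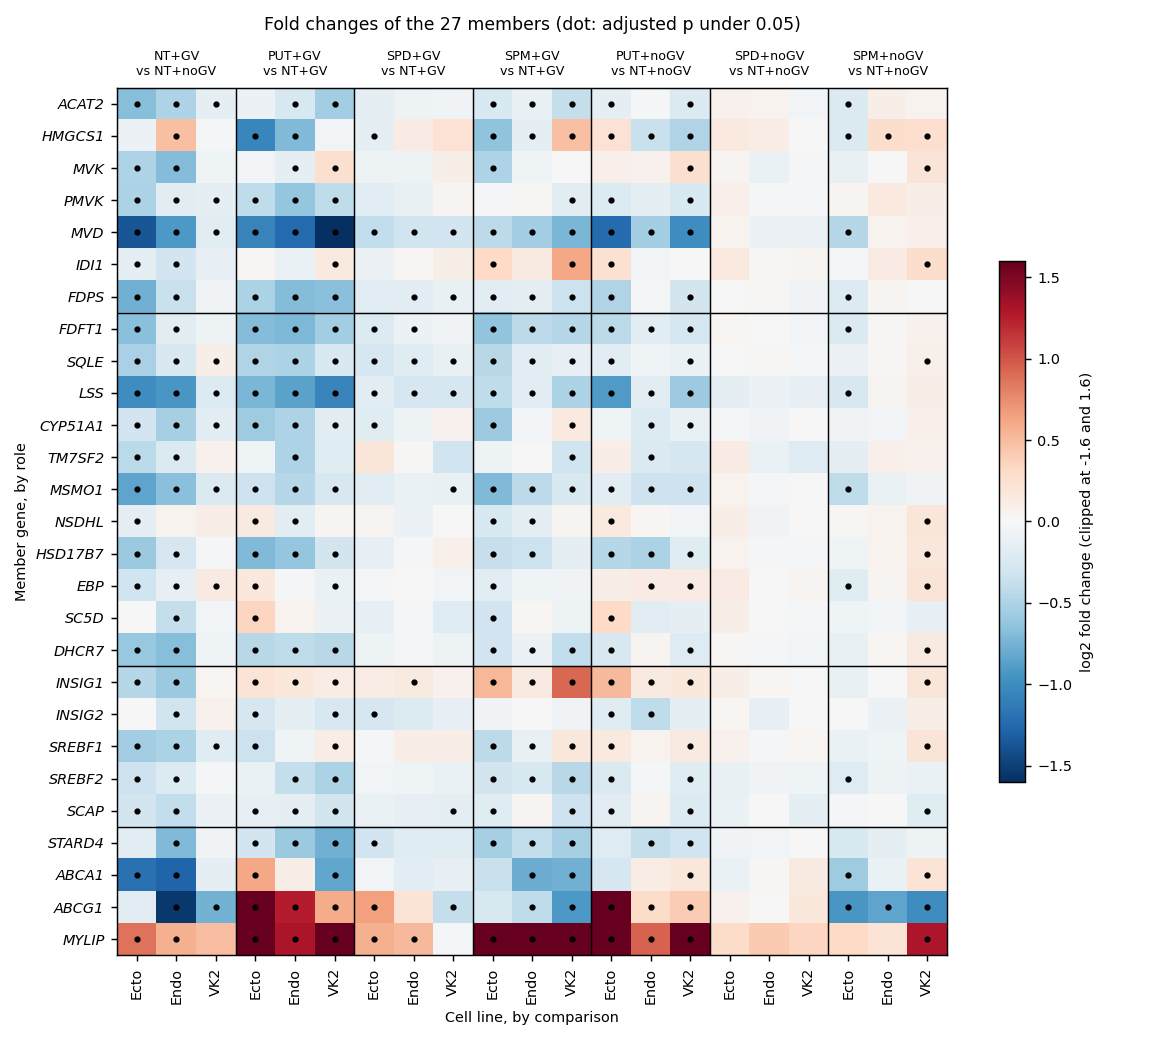
Log2 fold changes of the 27 members (rows, by role) in 7 comparisons within each line (columns), where a dot marks an adjusted p under 0.05 and colour is clipped at -1.6 and 1.6. Blue (lower) dominates the synthesis rows under GV in Ecto and Endo and under PUT+GV and SPM+GV in all 3 lines, while the columns of SPD+noGV hold no dot.

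The first question was what G. vaginalis alone did to sterol genes. In Ecto and Endo cells most members fell, and in VK2 fewer did, though still a larger share than of all genes. Within each line, values below come from 1 edgeR model over its 24 libraries, with 19459 genes tested in Ecto, 18741 in Endo and 18474 in VK2, and CPM is scaled within the line. NT+GV against NT+noGV lowered 21 of 27 members in Ecto and raised 1, beside 23.7% of all tested genes lowered and 20.9% raised. In Endo 24 members fell and 2 rose, beside 28.7% and 25.7% of all genes. In VK2 8 members fell and 2 rose, beside 12.5% and 13.9%. Over the members, the median log2 fold change came to -0.46 for Ecto, -0.38 for Endo and -0.070 for VK2, while that of all genes was near 0. The members' summed share of all counts was 0.458% in untreated and 0.342% in exposed Ecto cells, 0.423% and 0.328% in Endo, and 0.343% and 0.316% in VK2. These are bulk RNA data, in which fewer cells of a kind and less RNA per cell cannot be told apart.

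In the mevalonate arm, 6 of 7 members fell in Ecto, 6 fell and 1 rose in Endo, and 3 fell in VK2. MVD, which decarboxylates diphosphomevalonate to isopentenyl diphosphate, changed most. In Ecto, MVD measured 157, 166 and 161 CPM without bacteria and 67.6, 58.5 and 60.3 CPM with them. In Endo it went from 162, 168 and 161 CPM to 90.5, 81.3 and 89 CPM. In VK2 the values were 171, 177 and 170 CPM and 152, 156 and 150 CPM. The exposed libraries lay below the unexposed ones in each line, by a log2 fold change of -1.37 ± 0.080, adjusted p = 1.53e-12 in Ecto, -0.91 ± 0.060, adjusted p = 3.87e-12 in Endo and -0.18 ± 0.042, adjusted p = 0.00163 in VK2. ACAT2, the cytosolic thiolase that opens the route, fell in all 3 lines (log2 fold changes -0.68, -0.49 and -0.16). Its locus overlaps TCP1 and SOD2 on the opposite strand, with 193% and 90.8% as many counts. PMVK, which phosphorylates phosphomevalonate, also fell in all 3 (-0.51, -0.18 and -0.16). HMGCS1 went another way. In Endo it rose from 158, 170 and 166 CPM to 223, 228 and 236 CPM with no overlap, a log2 fold change of 0.48 ± 0.045, adjusted p = 1.99e-10. In Ecto its log2 fold change was -0.10 ± 0.047, adjusted p = 0.0871, and in VK2 it was -0.032 ± 0.081, adjusted p = 0.826, neither past the threshold.

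Of the 11 enzymes from squalene onward, 10 fell in Ecto, 10 fell in Endo, and 3 fell and 2 rose in VK2. LSS, which folds squalene epoxide into lanosterol, the first sterol, fell in all 3. In Ecto, LSS measured 273, 281 and 289 CPM without and 143, 133 and 146 CPM with bacteria, a 2-fold fall (-0.999 ± 0.050, adjusted p = 4.05e-14). In Endo it went from 327, 331 and 314 CPM to 177, 162 and 170 CPM, a 1.91-fold fall (-0.93 ± 0.047, adjusted p = 2.45e-16). In VK2 it measured 349, 365 and 372 CPM and 307, 329 and 301 CPM, a smaller fall of 1.16-fold (-0.21 ± 0.041, adjusted p = 0.000148). The ranges did not overlap in any line. MSMO1 fell in all lines as well (log2 fold changes -0.85, -0.67 and -0.23), as did CYP51A1, the lanosterol demethylase (-0.30, -0.53 and -0.18). CYP51A1 overlaps AKAP9 on the opposite strand. FDFT1, which makes squalene, fell by 1.59-fold in Ecto and 1.13-fold in Endo, and its log2 value in VK2 was -0.082 ± 0.032, adjusted p = 0.0597. SQLE, the squalene epoxidase, and EBP, a sterol isomerase, were called in opposite directions. SQLE measured 264, 271 and 269 CPM without and 187, 191 and 186 CPM with bacteria in Ecto, and 286, 283 and 276 CPM and 297, 297 and 307 CPM in VK2. The Ecto groups lay far apart (-0.51 ± 0.041, adjusted p = 2.8e-10). The VK2 groups lay close together without overlapping (0.092 ± 0.031, adjusted p = 0.0247), and the VK2 call was lost without the NT+GV library of replicate 3 (log2 value 0.076) or the NT+noGV library of replicate 3 (0.079). EBP had log2 fold changes of -0.31 ± 0.070, adjusted p = 0.000721 in Ecto, -0.13 ± 0.034, adjusted p = 0.00169 in Endo and 0.14 ± 0.038, adjusted p = 0.00574 in VK2.

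Among the 5 sensors and regulators, 4 fell in Ecto, 5 in Endo and 1 in VK2. SREBF1 fell in every line. It measured 143, 157 and 160 CPM and then 103, 103 and 108 CPM in Ecto (-0.55 ± 0.060, adjusted p = 4.25e-08). In Endo it went from 256, 265 and 251 CPM to 193, 174 and 178 CPM (-0.50 ± 0.045, adjusted p = 3.28e-11), and in VK2 the change was -0.20 ± 0.047, adjusted p = 0.00162. Its locus overlaps RAI1 on the opposite strand, which had 65.4% as many counts. SREBF2, whose product drives the cholesterol arm above all, fell less, by -0.33 ± 0.050, adjusted p = 5.46e-06 in Ecto and -0.22 ± 0.039, adjusted p = 1.7e-05 in Endo, and measured -0.016 ± 0.043, adjusted p = 0.831 in VK2. INSIG1, the sterol-responsive brake on SCAP, went from 198, 204 and 203 CPM to 150, 145 and 144 CPM in Ecto (-0.46 ± 0.050, adjusted p = 3.6e-08). It went from 158, 159 and 159 CPM to 107, 95.4 and 113 CPM in Endo (-0.59 ± 0.048, adjusted p = 5.22e-12). In VK2 the ranges overlapped, at 95.9, 107 and 99.4 CPM and 96.5, 107 and 104 CPM (0.030 ± 0.045, adjusted p = 0.678).

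The exporters fell too, each in a pair of lines. ABCA1, which hands cholesterol to apolipoprotein A-I, measured 53.4, 48.6 and 44.6 CPM without and 23.4, 19.6 and 21 CPM with bacteria in Ecto, a 2.29-fold fall (-1.20 ± 0.16, adjusted p = 6.29e-06). In Endo it went from 96.9, 85.6 and 91.8 CPM to 38.8, 34.5 and 39.6 CPM, a 2.43-fold fall (-1.28 ± 0.082, adjusted p = 4.89e-11). In VK2 the values were 94.7, 97.8 and 95.4 CPM and 93.3, 79.4 and 87 CPM, a log2 difference of -0.14 ± 0.069, adjusted p = 0.136. ABCG1 fell in Endo, from 30, 29.1 and 28.3 CPM to 11.8, 8.43 and 9.9 CPM (-1.54 ± 0.11, adjusted p = 2.84e-11). It also fell in VK2, from 23, 22.6 and 22.3 CPM to 16.6, 12 and 11.6 CPM (-0.76 ± 0.11, adjusted p = 1.52e-05). In Ecto its low levels of 2.18, 1.98 and 1.66 CPM and 1.75, 2.04 and 1.35 CPM overlapped (-0.17 ± 0.15, adjusted p = 0.364). MYLIP went the other way. In Ecto it went from 3.07, 3.39 and 3.31 CPM to 5.02, 6.52 and 6.26 CPM (0.87 ± 0.13, adjusted p = 3.32e-06), and in Endo from 2.71, 2.71 and 2.79 CPM to 4.02, 4.13 and 4.07 CPM (0.57 ± 0.11, adjusted p = 7.72e-05). In VK2 it stayed under 1 CPM in all 6 libraries (0.49 ± 0.30, adjusted p = 0.251). STARD4, which carries sterol between membranes, fell in Endo (-0.71 ± 0.12, adjusted p = 6.97e-05), and this response was lower than in VK2 by -0.64 ± 0.14, adjusted p = 0.000329.

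**Figure D2:**
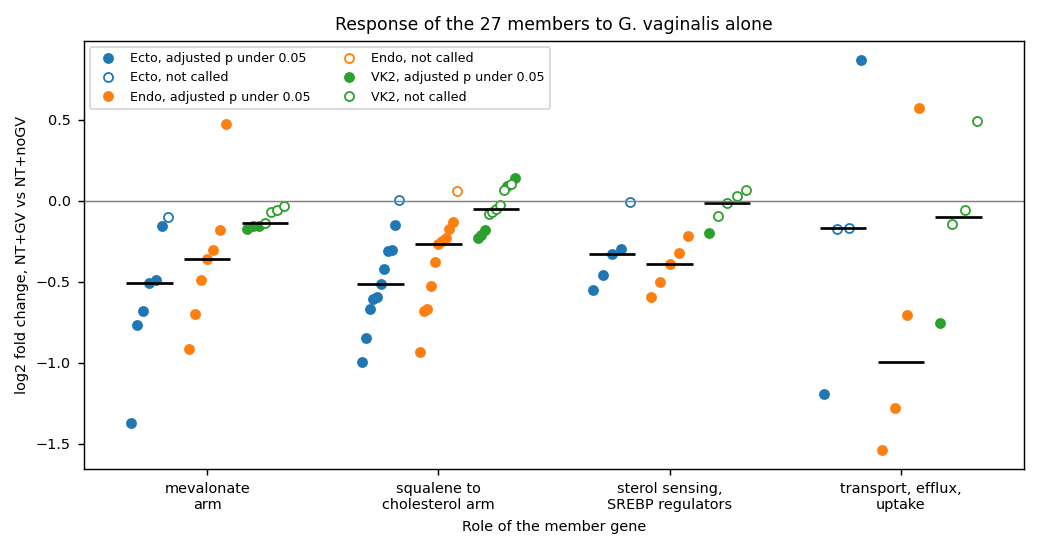
Log2 fold change of each member, NT+GV against NT+noGV, by role (x axis) and line (colour), with filled points for an adjusted p under 0.05 and a black bar at the median. The medians of the first 3 roles lie between -0.51 and -0.27 in Ecto and Endo and between -0.14 and -0.016 in VK2, and the transport genes spread on both sides of 0.

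The response to bacteria was compared between lines as a difference of differences. For Ecto minus VK2, 19 of 27 members responded more negatively and 1 more positively, beside 15.6% and 11.9% of all genes. For Endo minus VK2, 19 were more negative and 1 more positive, beside 14.4% and 11.3%. Both sets of differences share the VK2 libraries. For Ecto minus Endo, 9 were more negative and 6 more positive, beside 14.5% and 13.5%, and 9 were called in all without replicate 1. The MVD response was lower in Ecto than in VK2 by -1.17 ± 0.093, adjusted p = 2.19e-15, and that of LSS by -0.76 ± 0.068, adjusted p = 4.42e-14. ABCA1 responded more negatively in Ecto (-1.02 ± 0.16, adjusted p = 1.28e-06) and in Endo (-1.12 ± 0.15, adjusted p = 8.34e-08) than in VK2. The HMGCS1 response was higher in Endo than in VK2 by 0.52 ± 0.083, adjusted p = 1.18e-06. The 2 genes called in opposite directions also differed by this test, SQLE by -0.58 ± 0.053, adjusted p = 8.94e-14 and EBP by -0.43 ± 0.073, adjusted p = 5.02e-06 for Ecto minus VK2.

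With putrescine given before bacteria, more members were called lower than higher in each line, VK2 included. PUT+GV was compared with NT+GV, and the NT+GV libraries serve as the control for all 3 polyamines. In Ecto 15 of 27 members fell and 7 rose, beside 24.9% and 31.5% of all genes. In Endo 18 fell and 3 rose, beside 28.2% and 27.9%. In VK2 17 fell and 6 rose, beside 31.4% and 29%. The counts of members that rose lie near or under the shares over all genes. In the mevalonate arm 4, 6 and 4 of 7 members fell in Ecto, Endo and VK2, and in the later arm 7, 9 and 8 of 11 did. Some enzymes were called higher, NSDHL, EBP and SC5D in Ecto and MVK and IDI1 in VK2. Called lower in all 3 lines were 12 members, namely MVD, PMVK and FDPS of the mevalonate arm, FDFT1, SQLE, LSS, CYP51A1, MSMO1, HSD17B7 and DHCR7 of the later arm, SCAP, and STARD4. The counts of HSD17B7 may include reads of its copy HSD17B7P2, which had 13.6% as many. The members took 0.28% of counts in Ecto, 0.274% in Endo and 0.276% in VK2.

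MVD was lower in these groups than in any other group of its line. Its PUT+GV levels were 32, 29.7 and 27.3 CPM in Ecto, 38.8, 37 and 34.5 CPM in Endo and 49.5, 49.7 and 52.7 CPM in VK2. The log2 fold changes from NT+GV were -1.07 ± 0.084, adjusted p = 9.89e-11 in Ecto, -1.24 ± 0.065, adjusted p = 8.03e-14 in Endo and -1.59 ± 0.045, adjusted p = 7.84e-23 in VK2, a 3.02-fold fall in the last. LSS reached 84.6, 87.3 and 81.6 CPM in Ecto, 96.8, 95.7 and 87.5 CPM in Endo and 147, 151 and 150 CPM in VK2. No PUT+GV library overlapped an NT+GV library of its line for either gene, and the LSS changes were -0.73 ± 0.051, adjusted p = 6.24e-12, -0.86 ± 0.049, adjusted p = 5.63e-15 and -1.06 ± 0.042, adjusted p = 1.51e-19. FDPS, which makes farnesyl diphosphate, fell by 1.41-fold, 1.62-fold and 1.6-fold. HMGCS1 separated the lines again. It fell in Ecto from 358, 369 and 351 CPM to 174, 175 and 175 CPM (-1.04 ± 0.048, adjusted p = 4.3e-15) and in Endo from 223, 228 and 236 CPM to 147, 142 and 131 CPM (-0.71 ± 0.046, adjusted p = 3.4e-14). In VK2 the ranges of 114, 130 and 125 CPM and 127, 126 and 103 CPM overlapped (-0.050 ± 0.081, adjusted p = 0.621). The HMGCS1 response differed between Ecto and VK2 by -1.04 ± 0.083, adjusted p = 2.47e-16.

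**Figure D3:**
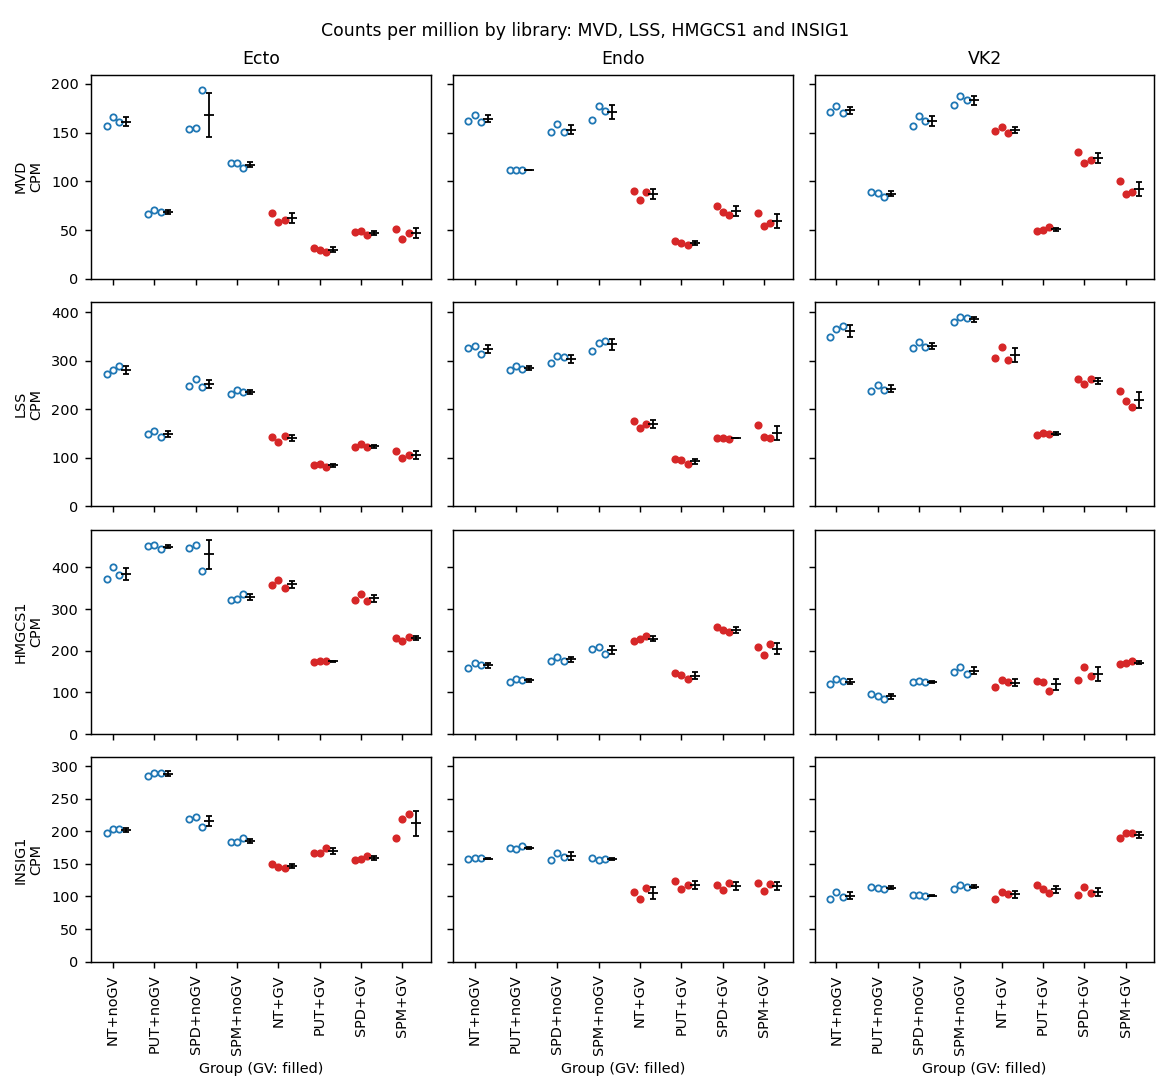
CPM of MVD, LSS, HMGCS1 and INSIG1 (rows) in each library of the 8 groups (x axis) of each line (columns), with open points without bacteria, filled points with GV, and bars for mean and SD of 3 libraries. MVD and LSS are lowest under PUT+GV in every line, HMGCS1 falls under PUT+GV in Ecto and Endo, and INSIG1 is highest under SPM+GV in VK2.

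ABCG1 and MYLIP, both LXR targets, rose under putrescine in each line. ABCG1 went from 1.75, 2.04 and 1.35 CPM to 9.43, 8.31 and 8.72 CPM in Ecto, a 5.14-fold rise (2.36 ± 0.13, adjusted p = 1.53e-13). In Endo it went from 11.8, 8.43 and 9.9 CPM to 26.1, 22.7 and 22.8 CPM (1.25 ± 0.11, adjusted p = 1.16e-09), and in VK2 from 16.6, 12 and 11.6 CPM to 20.5, 18.3 and 21.7 CPM (0.59 ± 0.11, adjusted p = 7.62e-05). MYLIP rose to 21.2, 19.9 and 20.9 CPM in Ecto (1.80 ± 0.10, adjusted p = 1.31e-13), 10.6, 9.9 and 9.66 CPM in Endo (1.30 ± 0.10, adjusted p = 5.8e-13) and 2.25, 1.75 and 1.86 CPM in VK2 (1.74 ± 0.24, adjusted p = 1.41e-07). No range of either gene overlapped that of NT+GV. ABCA1 was called higher in Ecto, at 34.8, 30.3 and 33.1 CPM (0.62 ± 0.16, adjusted p = 0.00304), and lower in VK2, at 51.3, 45.4 and 48.9 CPM (-0.84 ± 0.072, adjusted p = 1.17e-09). In Endo its range of 41.2, 37.4 and 41.4 CPM overlapped that of NT+GV (0.089 ± 0.086, adjusted p = 0.396). The ABCA1 response differed between Ecto and VK2 by 1.40 ± 0.16, adjusted p = 7.44e-10. INSIG1 was also called higher in all 3 lines, by small log2 changes of 0.21, 0.17 and 0.12. The Endo call was lost without the NT+GV library of replicate 2 (0.10) or the PUT+GV library of replicate 1 (0.10), and the VK2 call without the NT+GV library of replicate 1 (0.062), the PUT+GV library of replicate 1 (0.070) or that of replicate 2 (0.11). SREBF2 fell in Endo (-0.38 ± 0.040, adjusted p = 1.58e-09) and VK2 (-0.50 ± 0.044, adjusted p = 1.46e-11), and SREBF1 fell in Ecto (-0.34 ± 0.061, adjusted p = 3.42e-05). SREBF1 was called higher in VK2, at a mean of 154 CPM against 143 CPM, and was not called in Endo.

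The putrescine response was compared between lines in the same way. For Ecto minus VK2, 9 responses were more positive and 7 more negative, beside 17.3% and 17.7% of all genes. For Endo minus VK2, 5 were more positive and 8 more negative, beside 11.2% in either direction, and 8 were called in all without replicate 1. For Ecto minus Endo, 5 were more positive and 2 more negative, beside 12.7% and 12.1%, and 3 were called in all without replicate 1.

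Putrescine without bacteria also gave more members called lower than higher. In PUT+noGV against NT+noGV, 13 members fell and 8 rose in Ecto, beside 22.9% and 23.9% of all genes. In Endo 10 fell and 4 rose, beside 16.3% and 15.6%, and in VK2 15 fell and 7 rose, beside 23% and 22%. MVD fell to 66, 70.7 and 68.5 CPM in Ecto (-1.24 ± 0.079, adjusted p = 8.6e-12), 112, 112 and 112 CPM in Endo (-0.55 ± 0.059, adjusted p = 1.31e-07) and 88.5, 88.4 and 84.1 CPM in VK2 (-0.99 ± 0.043, adjusted p = 9.78e-18). All 9 libraries lay below the untreated ones of their lines. LSS fell by 1.88-fold in Ecto, 1.14-fold in Endo and 1.49-fold in VK2, and FDFT1, MSMO1 and HSD17B7 were also called lower in all 3. ABCG1, INSIG1 and MYLIP were called higher in all 3. MYLIP went from 3.07, 3.39 and 3.31 CPM to 13.9, 13.6 and 12.5 CPM in Ecto (2.04 ± 0.11, adjusted p = 3.53e-13). INSIG1 went from 198, 204 and 203 CPM to 284, 290 and 290 CPM there (0.52 ± 0.049, adjusted p = 3.76e-09). HMGCS1 was called higher in Ecto, at 452, 454 and 445 CPM (0.23 ± 0.047, adjusted p = 0.000289), and lower in Endo (-0.36 ± 0.046, adjusted p = 3.9e-07) and VK2 (-0.48 ± 0.082, adjusted p = 9.79e-05). SREBF1 was called higher in Ecto (mean 170 against 154 CPM) and VK2 (180 against 164 CPM, with overlapping ranges), and was not called in Endo.

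Whether bacteria changed the putrescine effect was tested as an interaction. Negative values mean a lower change with bacteria than without. In Ecto 7 members were more negative and 2 more positive with GV, beside 12% and 14.4% of all genes. In Endo 15 were more negative and 1 more positive, beside 19.9% and 14.9%, and in VK2 11 and 1, beside 17.8% and 9.82%. FDFT1, SQLE and DHCR7, the reductase near the end of the route, were more negative in all 3 lines. HMGCS1 turned over in Ecto, higher with putrescine alone and lower with putrescine and bacteria, an interaction of -1.27 ± 0.067, adjusted p = 2.02e-12. In VK2 its interaction was positive (0.43 ± 0.12, adjusted p = 0.00947). ABCA1 likewise had a positive interaction in Ecto (0.89 ± 0.22, adjusted p = 0.00557) and a negative one in VK2 (-1.02 ± 0.10, adjusted p = 1.22e-07).

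Spermine before bacteria also gave more members called lower than higher in each line, while in VK2 HMGCS1, IDI1, CYP51A1, INSIG1, SREBF1 and MYLIP were called higher. SPM+GV against NT+GV lowered 19 of 27 members and raised 3 in Ecto, beside 27.5% and 28.5% of all genes. In Endo 16 fell and 2 rose, beside 21.1% and 21.9%, and in VK2 15 fell and 6 rose, beside 30.3% and 27.9%. Called lower in all 3 lines were 10 members, ACAT2, FDPS, MVD, FDFT1, SQLE, LSS, MSMO1, DHCR7, SREBF2 and STARD4. MVD measured 51.3, 41 and 47.2 CPM in Ecto, 67.2, 54 and 56.7 CPM in Endo and 100, 87.2 and 89.3 CPM in VK2, against NT+GV values of 67.6, 58.5 and 60.3, 90.5, 81.3 and 89 and 152, 156 and 150 CPM. The ranges did not overlap, and the changes were -0.42 ± 0.082, adjusted p = 0.000115, -0.55 ± 0.063, adjusted p = 1.59e-07 and -0.73 ± 0.044, adjusted p = 2.92e-15. FDFT1 fell by 1.55-fold, 1.34-fold and 1.37-fold.

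MYLIP gave the largest rise of any member. In Ecto it went from 5.02, 6.52 and 6.26 CPM to 70.6, 91.8 and 88 CPM, a 14.1-fold rise (3.82 ± 0.10, adjusted p = 1.84e-20). In Endo it went from 4.02, 4.13 and 4.07 CPM to 17.4, 19.8 and 19.5 CPM, 4.63-fold (2.21 ± 0.092, adjusted p = 1.38e-18). In VK2 it went from 0.449, 0.513 and 0.744 CPM to 8.15, 10.4 and 10.6 CPM, 16.6-fold (4.05 ± 0.22, adjusted p = 1.4e-16). Every SPM+GV library stood above all other groups of its line. In Endo the nearest group was PUT+GV, at a mean of 10.1 CPM against 18.9 CPM. The exporter genes ABCA1 and ABCG1 were not called higher in any line, and in Ecto neither was called. ABCA1 fell in Endo, to 25.3, 19.2 and 20.4 CPM (-0.79 ± 0.093, adjusted p = 7.69e-07), and in VK2, to 57.5, 46.9 and 47.6 CPM (-0.77 ± 0.074, adjusted p = 6.96e-09). ABCG1 fell in VK2, to 8.11, 6.15 and 6.82 CPM (-0.92 ± 0.13, adjusted p = 2.79e-06), and in Endo (-0.41 ± 0.12, adjusted p = 0.0109). The Endo call of ABCG1 was lost without the NT+GV library of replicate 1 (-0.28) or the SPM+GV library of replicate 2 (-0.31).

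**Figure D4:**
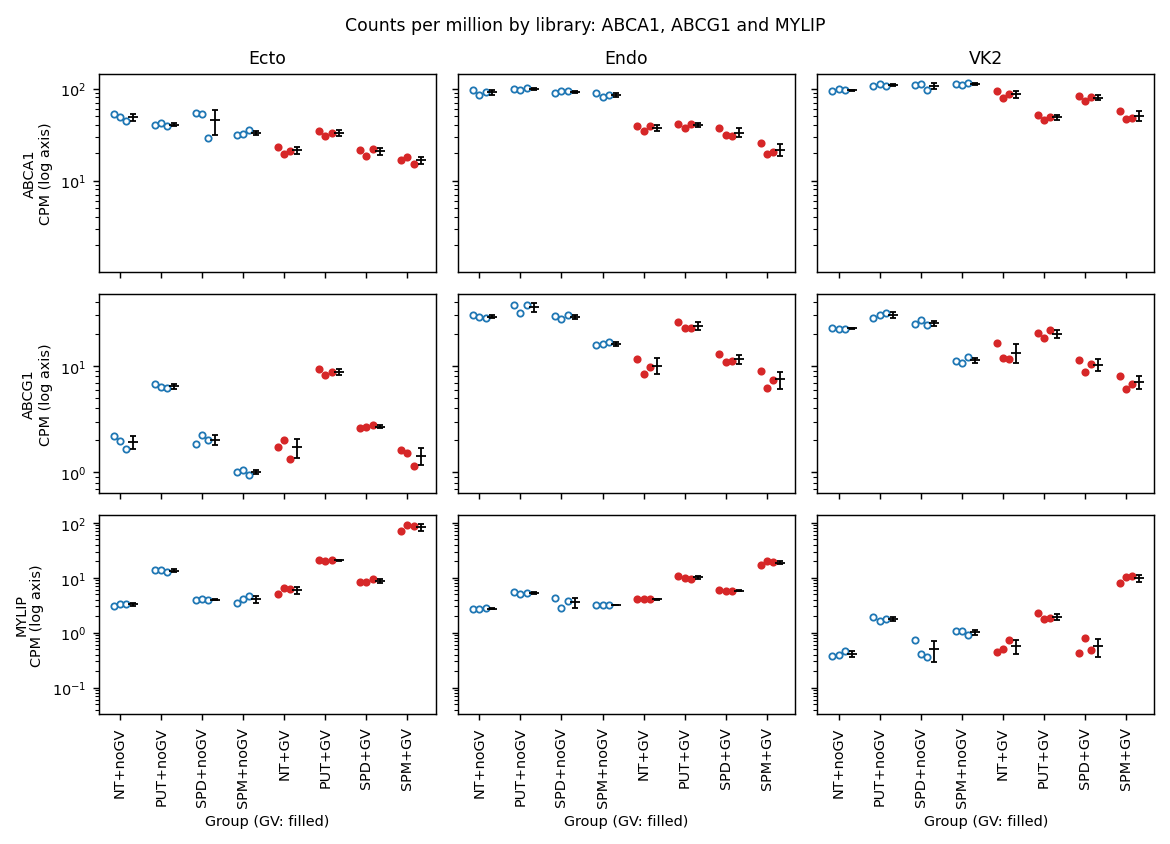
CPM on a log axis of ABCA1, ABCG1 and MYLIP (rows) in each library of the 8 groups of each line (columns), with open points without bacteria, filled points with GV, and bars for mean and SD of 3 libraries. MYLIP peaks under SPM+GV at 70.6 to 91.8 CPM in Ecto, and ABCG1 stands highest under the putrescine groups in Ecto.

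INSIG1 rose in VK2 from 96.5, 107 and 104 CPM to 189, 197 and 197 CPM, a 1.89-fold rise (0.92 ± 0.045, adjusted p = 1.05e-17). In Ecto it rose from 150, 145 and 144 CPM to 190, 219 and 227 CPM (0.53 ± 0.050, adjusted p = 1.27e-09). Neither pair of ranges overlapped. In Endo the change was 0.14 ± 0.048, adjusted p = 0.0161, and the call was lost without the NT+GV library of replicate 2 (0.076), the SPM+GV library of replicate 1 (0.12) or that of replicate 3 (0.13). HMGCS1 was called in opposite directions. It fell in Ecto, to 230, 224 and 234 CPM (-0.65 ± 0.047, adjusted p = 1.35e-11), fell in Endo, to 210, 190 and 215 CPM (-0.16 ± 0.045, adjusted p = 0.00505), and rose in VK2, to 168, 170 and 175 CPM (0.48 ± 0.081, adjusted p = 5.22e-05). The response of HMGCS1 was lower in Ecto than in VK2 by -1.11 ± 0.083, adjusted p = 2e-17. CYP51A1 was likewise lower in Ecto (-0.58 ± 0.054, adjusted p = 1.32e-09) and higher in VK2 (0.16 ± 0.047, adjusted p = 0.00488), where the call was lost without the SPM+GV library of replicate 1 (0.10). IDI1, which interconverts the isoprene units, rose in Ecto (0.32 ± 0.060, adjusted p = 5.7e-05) and VK2 (0.61 ± 0.054, adjusted p = 8.86e-11). Over all members, Ecto minus VK2 gave 5 more positive and 10 more negative responses to spermine, beside 17.1% and 14.5% of all genes, and 9 were called in all without replicate 1 or without replicate 2. Endo minus VK2 gave 7 and 5, beside 16.1% and 8.51%, and Ecto minus Endo gave 2 and 12, beside 10.8% and 15%, and 9 in all without replicate 2.

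Spermine without bacteria gave fewer called members than spermine with bacteria in each line. The calls differed between lines, and whether the responses themselves differed was not tested. SPM+noGV against NT+noGV lowered 11 members in Ecto, beside 12.2% of all genes lowered and 11.3% raised. In Endo 1 member rose and 1 fell, HMGCS1 and ABCG1, beside 8.02% and 10.1%, and in VK2 12 rose and 2 fell, beside 17.4% and 15.6%. ABCG1 fell in each line. It measured 1, 1.06 and 0.955 CPM in Ecto (-0.94 ± 0.16, adjusted p = 0.000122), 15.8, 16 and 16.9 CPM in Endo (-0.84 ± 0.10, adjusted p = 2.92e-06) and 11.2, 10.8 and 12.1 CPM in VK2 (-0.99 ± 0.11, adjusted p = 3.41e-07), below every untreated library. HMGCS1 fell in Ecto, to 322, 325 and 336 CPM (-0.23 ± 0.047, adjusted p = 0.000622), and rose in Endo, to 203, 209 and 191 CPM (0.29 ± 0.046, adjusted p = 3.08e-05). In VK2 it was called higher (0.27 ± 0.080, adjusted p = 0.014), a call lost without the NT+noGV library of replicate 1 (0.23) or the SPM+noGV library of replicate 2 (0.22). MYLIP rose in VK2, to 1.09, 1.06 and 0.905 CPM (1.29 ± 0.27, adjusted p = 0.000301). ABCA1 and EBP were called lower in Ecto, at means of 32.9 against 48.9 CPM and 138 against 158 CPM. Both were called higher in VK2, at means of 112 against 95.9 CPM and 134 against 116 CPM.

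The interaction of spermine with bacteria was large. In Ecto 10 members were more negative and 4 more positive with GV, beside 17.3% and 19% of all genes. In Endo 12 and 1 were, beside 10.2% and 14.1%, and in VK2 15 and 3, beside 21.9% and 17%. In Endo, 8 members were called in all without the SPM+noGV library of replicate 2. FDFT1, SQLE, MSMO1 and HSD17B7 were more negative in all 3 lines, and MYLIP was more positive in all 3. The MYLIP interactions were 3.49 ± 0.17, adjusted p = 2.49e-14 in Ecto, 1.99 ± 0.15, adjusted p = 1.21e-11 in Endo and 2.76 ± 0.37, adjusted p = 4.4e-07 in VK2. INSIG1 had positive interactions in Ecto (0.65 ± 0.070, adjusted p = 4.35e-08) and VK2 (0.73 ± 0.063, adjusted p = 8.02e-11). MVD had negative ones in Endo (-0.61 ± 0.085, adjusted p = 7.96e-06) and VK2 (-0.81 ± 0.061, adjusted p = 3.69e-12), and in Ecto the value was 0.038 ± 0.11, adjusted p = 0.83. ABCA1 was more negative in Endo (-0.68 ± 0.12, adjusted p = 0.000266) and VK2 (-0.99 ± 0.10, adjusted p = 7.01e-08).

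**Figure D5:**
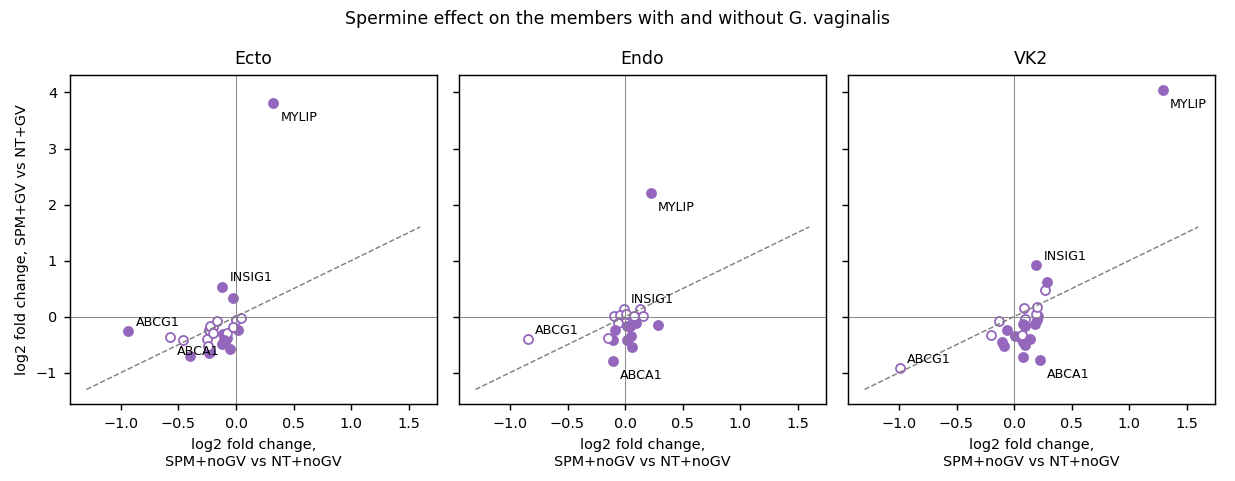
Log2 fold change of each member under spermine without bacteria (x axis) and with bacteria (y axis) in each line, with filled points for an interaction past an adjusted p of 0.05 and a dashed line of equal change. Most filled points lie below the dashed line, and MYLIP lies far above it in all 3 lines, at 3.82, 2.21 and 4.05 on the y axis.

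Spermidine, at the dose of spermine, gave fewer called members than spermine in each line, with and without bacteria. With bacteria, some enzymes missed the threshold between the compounds, as given below. SPD+noGV against NT+noGV gave 0 called members in any line by edgeR, beside 0.139% of all genes higher and 0.164% lower in Ecto, 0.101% and 0.08% in Endo, and 0.238% and 0.222% in VK2. At an unadjusted p under 0.05 there were 5 members in Ecto, 3 in Endo and 3 in VK2, and DESeq2 called 1, 0 and 0. In Ecto 1 member rose without the SPD+noGV library of replicate 3, and 1 was called in Endo without the SPD+noGV library of replicate 2. With bacteria, SPD+GV against NT+GV lowered 8 members and raised 2 in Ecto, beside 6.6% and 6.53% of all genes. In Endo 5 fell and 2 rose, beside 8.71% and 5.22%, and in VK2 7 fell, beside 7.87% that fell and 4.84% that rose. In Ecto the called members numbered 5 without the NT+GV library of replicate 1 and 6 without the SPD+GV library of replicate 2. In VK2 they numbered 4 without the NT+GV library of replicate 1 or the SPD+GV library of replicate 2. MVD, LSS and SQLE were called lower in all 3 lines. MVD measured 48.1, 48.9 and 45 CPM in Ecto (-0.39 ± 0.081, adjusted p = 0.00247), 75, 68 and 65.6 CPM in Endo (-0.32 ± 0.061, adjusted p = 0.00101) and 130, 119 and 122 CPM in VK2 (-0.30 ± 0.043, adjusted p = 9.96e-06), each range below that of NT+GV. SQLE changed by -0.27 ± 0.042, adjusted p = 0.000155 in Ecto and -0.20 ± 0.042, adjusted p = 0.00171 in Endo. ABCG1 was called higher in Ecto, at 2.62, 2.65 and 2.8 CPM (0.65 ± 0.14, adjusted p = 0.0038), and lower in VK2 (-0.38 ± 0.12, adjusted p = 0.0374). That VK2 call was lost without the NT+GV library of replicate 1 (-0.20), the SPD+GV library of replicate 2 (-0.28) or that of replicate 3 (-0.40). The spermidine by bacteria interaction was called for 4 members in Ecto, all negative (HMGCS1, MVD, FDFT1 and SQLE), beside 1.59% of all genes negative and 1.54% positive. Without the NT+GV or NT+noGV library of replicate 1, or the SPD+GV library of replicate 2 or 3, it was called for 2. In Endo it was called for 2 (FDPS and SQLE), beside 2.31% and 1.14%, with 0 to 2 when 1 library was left out. In VK2 edgeR called 0 members, beside 0.244% and 0.108%, with 6 at an unadjusted p under 0.05, and DESeq2 called 2.

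Spermine is spermidine with one more aminopropyl group, and the 2 were given at the same dose and times, so they were compared directly. In 6 such comparisons of the 2 compounds, p-values were adjusted over all genes. With bacteria, SPM+GV against SPD+GV gave 15 members lower and 4 higher in Ecto, beside 26.2% and 27.6% of all genes. In Endo 9 were lower and 3 higher, beside 21.2% and 23.4%, and in VK2 14 and 4, beside 27.5% and 25.1%. ABCG1, FDFT1, HSD17B7, MSMO1 and SREBF2 were lower under spermine in all 3 lines, and MYLIP was higher in all 3. MYLIP differed by 3.26 ± 0.094, adjusted p = 2.27e-19 in Ecto, 1.69 ± 0.087, adjusted p = 3.43e-16 in Endo and 4.07 ± 0.21, adjusted p = 9.22e-17 in VK2. INSIG1 was higher under spermine in Ecto (0.42 ± 0.050, adjusted p = 9.19e-08) and VK2 (0.86 ± 0.044, adjusted p = 6.12e-17). In Endo its difference was -0.002 ± 0.048, adjusted p = 0.981, with a 95% interval of -0.10 to 0.10, which does not show that the compounds act alike. Other members that missed the threshold were SQLE in Endo (0.031 ± 0.042, 95% interval -0.056 to 0.12) and in VK2 (-0.019 ± 0.031, -0.082 to 0.044), and MVD in Ecto (-0.027 ± 0.082, -0.20 to 0.14). HMGCS1 was lower under spermine in Ecto (-0.50 ± 0.047, adjusted p = 1.79e-09) and Endo (-0.29 ± 0.045, adjusted p = 4.44e-06) and higher in VK2 (0.25 ± 0.080, adjusted p = 0.0133), the last call being lost without the SPD+GV library of replicate 1 (0.18). SCAP was called higher under spermine in Endo (mean 37.9 against 33.6 CPM) and lower in VK2 (37.2 against 42.5 CPM).

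Without bacteria, SPM+noGV against SPD+noGV gave 13 members lower in Ecto, beside 10% of all genes lower and 10.4% higher, and 12 members lower without the SPD+noGV library of replicate 3. In Endo 1 was lower and 1 higher, ABCG1 and HMGCS1, beside 6.92% and 5.73%, with 1 called in all without the SPD+noGV library of replicate 1 or 3 or the SPM+noGV library of replicate 2. In VK2 1 was lower and 15 higher, beside 13.1% and 15.2%. ABCG1 was lower under spermine in each line (-1.01 ± 0.16, adjusted p = 8.34e-05, -0.85 ± 0.10, adjusted p = 5.17e-06 and -1.16 ± 0.11, adjusted p = 5.71e-08). In VK2, LSS (0.22 ± 0.041, adjusted p = 8.76e-05), MVK (0.24 ± 0.038, adjusted p = 1.31e-05) and IDI1 (0.24 ± 0.053, adjusted p = 0.000859) were among those higher under spermine. In Ecto, MVD (-0.51 ± 0.078, adjusted p = 4.23e-05), MSMO1 (-0.46 ± 0.060, adjusted p = 5.1e-06) and HMGCS1 (-0.40 ± 0.047, adjusted p = 1.31e-06) were lower. The same 9 members, ACAT2, DHCR7, EBP, FDFT1, HMGCS1, IDI1, INSIG1, MVD and SREBF1, were called lower in Ecto and higher in VK2. Whether these differences between the compounds differed between lines was not tested. Putrescine, the diamine, was given at 4 mM and was not compared with either.

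Related genes were counted by lists chosen with earlier results of these data known. Of 10 genes of fatty acid synthesis, which SREBP1 drives, 8 fell and 2 rose with bacteria in Ecto, 8 fell and 2 rose in Endo, and 6 fell in VK2. The shares of all genes that fell with bacteria were 23.7%, 28.7% and 12.5%, and those that rose 20.9%, 25.7% and 13.9%. FASN, the fatty acid synthase, changed by -1.42 ± 0.073, adjusted p = 6.09e-14 in Ecto, -1.10 ± 0.069, adjusted p = 4.96e-11 in Endo and -0.40 ± 0.052, adjusted p = 1.5e-06 in VK2. ACSS2, which makes acetyl-CoA from acetate, changed by -1.64 ± 0.049, adjusted p = 1.83e-18 in Ecto and -0.27 ± 0.038, adjusted p = 1.55e-06 in VK2. In Endo its mean went from 269 to 118 CPM. Under PUT+GV 9, 8 and 8 of the 10 fell in Ecto, Endo and VK2, beside 24.9%, 28.2% and 31.4% of all genes, and 0, 1 and 2 rose, beside 31.5%, 27.9% and 29%. Under SPM+GV 7, 4 and 8 fell, beside 27.5%, 21.1% and 30.3%, and 0, 1 and 2 rose, beside 28.5%, 21.9% and 27.9%. The remaining lists are small, and their counts with bacteria alone are read against the same shares of all genes. Of 5 genes of the LXRs and their partners, 3 fell in Ecto with bacteria, 2 rose and 2 fell in Endo, and 1 rose in VK2. Of 7 genes of intracellular sterol handling, 5 fell in Ecto, 5 in Endo and 2 in VK2. Of 6 other lipoprotein receptor genes, 3 fell and 1 rose in Ecto, 2 fell and 1 rose in Endo, and 3 rose in VK2. SCARB1, the receptor for high density lipoprotein, fell under PUT+GV by -1.01 ± 0.054, adjusted p = 5.34e-14 in Ecto, -0.98 ± 0.058, adjusted p = 4.21e-15 in Endo and -0.72 ± 0.043, adjusted p = 2.85e-15 in VK2.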

How the data were processed

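RNA of 72 libraries had been prepared with a stranded total RNA kit after ribosomal depletion and sequenced in pairs. Per the labels and the study's methods, the authors quantified reads with Salmon against GENCODE release 44 on GRCh38.p13 and deposited estimated counts per gene, whole as deposited. Removal of molecular-identifier duplicates and strand use in counting are not given in the sources used here. Groups were taken from the sample labels.

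Each line was fitted in edgeR 4.0.16 (R 4.3.3) with TMM normalization, filterByExpr, 8 group coefficients and a robust quasi-likelihood test. A model over 72 libraries with 24 coefficients compared the lines. Adjusted p (Benjamini-Hochberg over all genes) under 0.05 was called. All 27 members passed the filter in every fit. CPM used TMM-adjusted library sizes. Scripts were tested on simulated data. Alternatives were DESeq2 1.42.0, its size factors, no filter, a replicate block and leaving out each library. The members and lists were chosen with earlier results of these data known. Genes named were up to 4 called members per role and comparison with the smallest adjusted p, members called in all 3 lines or in opposite directions, and SREBF1, SREBF2, INSIG1, HMGCS1, SQLE, ABCA1 and ABCG1. In the lists of related genes, at most 3 members were named per list. Others named were chosen after their values were seen.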

Additional observations from a re-analysis of the deposited data

Results flagged for a closer look

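The effect of a polyamine on members differed with and without bacteria, by the interaction test of edgeR, for 9 of 27 members under putrescine, 4 under spermidine and 14 under spermine in Ecto. The shares of all genes that differed in the negative and the positive direction there were 12% and 14.4%, 1.59% and 1.54%, and 17.3% and 19%, so that the putrescine count lies near the background. In Endo it differed for 16, 2 and 13 members, beside 19.9% and 14.9%, 2.31% and 1.14%, and 10.2% and 14.1% of all genes. In VK2 it differed for 12 under putrescine and 18 under spermine, beside 17.8% and 9.82%, and 21.9% and 17%. Responses also differed between lines, by the test of the difference itself. The response to bacteria differed for 20 members between Ecto and VK2, 20 between Endo and VK2 and 15 between Ecto and Endo, beside 15.6% and 11.9%, 14.4% and 11.3%, and 14.5% and 13.5% of all genes in the negative and the positive direction. For putrescine with bacteria these counts were 16, 13 and 7, beside 17.7% and 17.3%, 11.2% and 11.2%, and 12.1% and 12.7%, so that the last count lies at the background. For spermine with bacteria they were 15, 12 and 14, beside 14.5% and 17.1%, 8.51% and 16.1%, and 15% and 10.8%.

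Some members were called in opposite directions in a pair of lines and also differed by that test. To bacteria alone, SQLE responded lower in Ecto than in VK2 by -0.58 ± 0.053 on the log2 scale and EBP by -0.43 ± 0.073, and in Endo against VK2 the differences were -0.33 ± 0.052 and -0.26 ± 0.073. Under PUT+GV the Ecto minus VK2 differences were 0.23 ± 0.073 for EBP, -0.50 ± 0.077 for SREBF1 and 1.40 ± 0.16 for ABCA1. There MVK differed by -0.40 ± 0.078 for Endo minus VK2, and NSDHL, a dehydrogenase of sterol demethylation, by 0.28 ± 0.072 for Ecto minus Endo. The Ecto call of EBP under PUT+GV, at 0.16 ± 0.070, was lost when any of the 6 libraries compared was left out (0.10 to 0.18 over the settings that lost it), and the VK2 call, at -0.11 ± 0.037, without the PUT+GV library of replicate 1 (-0.083). The Endo call of MVK, at -0.15 ± 0.051, was lost without the NT+GV library of replicate 1 (-0.098). Under SPM+GV the Ecto minus VK2 differences were -1.11 ± 0.083 for HMGCS1, -0.72 ± 0.071 for CYP51A1 and -0.59 ± 0.078 for SREBF1. The Endo minus VK2 differences were -0.58 ± 0.083 for HMGCS1 and -0.24 ± 0.076 for SREBF1. MVK overlaps MMAB on the opposite strand, with 64.4% as many counts.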

How the results depend on the processing

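No value called with all libraries in the reported fits changed direction under these alternatives, and uncalled values were not counted. With DESeq2, run within lines, 444 of 461 called values kept their call and 17 lost it. With DESeq2's size factors in edgeR the numbers were 641 and 19, with no filter on low counts 609 and 51, and with 1 library left out 3436 of 3891 and 455. Same-numbered libraries showed little shared deviation from their group means (correlations -0.059 to 0.113). The labels do not say what a shared number stands for. Under a replicate block 1 of 660 called values lost its call. The block moved the called members from 7 to 11 for SPD+GV in Endo, from 2 to 5 for SPM+noGV in Endo and from 2 to 4 for SPM+noGV against SPD+noGV in Endo.

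DESeq2 moved the number of called members from 0 to 1 for SPD+noGV in Ecto, from 4 to 9 for the spermidine interaction in Ecto, from 2 to 4 for SPM+noGV against SPD+noGV in Endo and from 0 to 2 for the spermidine interaction in VK2. DESeq2's size factors in edgeR gave 4 for SPM+noGV against SPD+noGV in Endo. With no filter the spermidine interaction was called for 2 members in Ecto and 2 in VK2, SPM+noGV for 4 and SPM+noGV against SPD+noGV for 5 in Endo. The cause of these moves was not tested.

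Leaving out 1 library at a time, the called members ranged from 5 to 7 for SPD+GV in Ecto (10 with all libraries), 4 to 8 in VK2 (7), 0 to 1 for SPD+noGV in Ecto and in Endo (0), 2 to 5 and 0 to 2 for the spermidine interaction in Ecto (4) and Endo (2), 8 to 14 for the spermine interaction in Endo (13) and 1 to 3 for SPM+noGV against SPD+noGV in Endo (2). Leaving out all libraries of 1 replicate number, the responses that differed between Ecto and Endo numbered 9 to 13 for bacteria (15), 3 to 5 for putrescine (7) and 9 to 14 for spermine (14). Between Endo and VK2 they numbered 8 to 12 for putrescine (13), and between Ecto and VK2 9 to 11 for spermine (15). Fewer libraries were fitted in these cases. Depth limits ABCG1 in Ecto and MYLIP in VK2, where NT+noGV libraries held 11 to 16 counts of MYLIP. Overlapping and copied genes named above may share reads. So may TM7SF2, called lower with bacteria in Ecto and Endo. It overlaps VPS51 on the same strand, which had 1360% as many counts.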

Other observations

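Of the genes of oxysterol formation, 1 of 3 tested fell with bacteria alone in Ecto, 1 of 1 in Endo and 1 of 3 in VK2, in each case CH25H, while CYP27A1 and CYP7B1 were not called in Ecto or VK2. CH25H, which makes the LXR-activating oxysterol 25-hydroxycholesterol, changed by -1.45 ± 0.40, adjusted p = 0.00452 in Ecto, -2.96 ± 0.35, adjusted p = 2.91e-08 in Endo and -1.05 ± 0.32, adjusted p = 0.0117 in VK2 by edgeR. Its levels were low, with 4 to 7 counts per exposed and 8 to 21 per unexposed Ecto library. In VK2 the ranges overlapped, at 1.54, 0.69 and 1.46 CPM without and 0.518, 0.84 and 0.486 CPM with bacteria. RNF139, a ubiquitin ligase of sterol-regulated degradation, rose under SPM+GV by 0.75 ± 0.054, adjusted p = 7.9e-12 in Ecto, 0.42 ± 0.047, adjusted p = 1.06e-08 in Endo and 0.27 ± 0.054, adjusted p = 7.26e-05 in VK2. Over the 7 genes of that list, 5, 4 and 5 fell and 1, 2 and 2 rose under SPM+GV, beside 27.5%, 21.1% and 30.3% of all genes that fell and 28.5%, 21.9% and 27.9% that rose. Of 10 genes of the isoprenoid branch, 3 rose and 3 fell with bacteria in Ecto, 3 rose and 3 fell in Endo, and 2 fell in VK2. These counts lie near the shares of all genes, 20.9% and 23.7% in Ecto, 25.7% and 28.7% in Endo and 12.5% that fell in VK2. Under SPM+GV 4 rose and 2 fell in Ecto, 3 rose and 1 fell in Endo, and 4 rose and 2 fell in VK2, beside the shares given for SPM+GV. In VK2, 8 of the 10 fatty acid synthesis genes rose and 1 fell under SPM+noGV, beside 17.4% and 15.6% of all genes.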
